A study of Mus musculus with 3 samples.

Results

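The genes described here are 9 genes that mark neural stem cells and the embryonic forebrain: Sox1, Sox2, Pax6, Nes, Msi1, Hes1, Hes5, Otx2 and Six3. They were chosen by name, for what they are known to do, with earlier results of these data known. They make up 9 genes beside the 22380 protein-coding genes of the annotation. For each gene, every listed peak was taken that overlapped its body or the 50 kb on either side, a stretch called the window of the gene below. Of the 9 genes, 8 were found by symbol in the GENCODE M1 annotation of the mouse genome mm9 (NCBIM37). Sox1 was not found there by symbol, so its start was placed at base 12395519 of chromosome 8 by the single exact match of its RefSeq promoter, and its window was counted from the start alone. The body of Sox1 was not counted, and counts of bodies therefore cover 8 genes.

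The study asked where homocysteinylated histones lie in the chromatin of neural stem cells. Chromatin came from NE4C cells, an established mouse neural stem cell line, grown without homocysteine thiolactone (HTL), the metabolite of homocysteine that modifies lysine. It was precipitated with an antibody to homocysteinylated lysine 79 of histone H3 (H3K79Hcy), with an antibody to homocysteinylated lysine in general (KHcy), or with an antibody to H3K4me3, the trimethyl mark of histone H3 lysine 4. Each antibody has 1 library and there are no replicates, so no test was made and the intervals below cover counting error only. The H3K79Hcy list held 7387 peaks with 209335 reads in them, the KHcy list 7300 peaks with 276864 reads, and the H3K4me3 list 19339 peaks with 787308 reads. The total number of reads of a library is not given, and its background in reads per window stands for its depth. Peaks consist of whole windows of 200 bp, and the fold of a peak is its reads divided by the background of its library over the same length. The median fold over all H3K79Hcy peaks was 2.70, over all KHcy peaks 2.25 and over all H3K4me3 peaks 2.59.

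Neural stem cells line the embryonic neural tube and either renew themselves or give rise to neurons and glia. Sox1 and Sox2 are transcription factors of the SoxB1 group that hold these cells in the progenitor state, and Pax6 is a paired-box and homeodomain factor of forebrain and eye progenitors. Nes encodes nestin, the intermediate filament protein used to recognize neural progenitors, and Msi1 encodes an RNA-binding protein of the same cells. Hes1 and Hes5 encode repressors that Notch signalling switches on through the DNA-binding protein RBPJ, while Otx2 and Six3 are homeodomain factors that pattern the anterior neural tube. H3K4me3 is known for its place at the starts of active genes, most of all at starts rich in the dinucleotide CG.

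The starts of these genes differ widely in CG content, and the 250 bases before 5 of them are given here as examples. Otx2 is the gene with both a KHcy and an H3K4me3 peak at the start, Nes has an H3K4me3 peak at the start, Sox1 has H3K4me3 peaks close to the start but not over it, and Hes1 and Hes5 have no peak of any list in the window. Each sequence was read from NCBIM37, runs 5′ to 3′ along the strand of the gene and ends at the base before the start, with every CG in capitals. For Hes1 the start is that of the coding transcript. The positions are chr14:49287320-49287569 on the minus strand for Otx2 and, on the plus strand, chr3:87774750-87774999 for Nes, chr8:12395269-12395518 for Sox1, chr16:30065176-30065425 for Hes1 and chr4:154334782-154335031 for Hes5. In Hes5 this stretch overlaps an exon of the non-coding transcript RP24-89N4.5.
Otx2: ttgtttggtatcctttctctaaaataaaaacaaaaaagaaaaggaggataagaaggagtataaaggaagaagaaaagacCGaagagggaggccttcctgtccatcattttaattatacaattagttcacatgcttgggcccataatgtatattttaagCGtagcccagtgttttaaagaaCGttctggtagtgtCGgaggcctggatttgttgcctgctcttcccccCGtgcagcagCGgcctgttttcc
Nes: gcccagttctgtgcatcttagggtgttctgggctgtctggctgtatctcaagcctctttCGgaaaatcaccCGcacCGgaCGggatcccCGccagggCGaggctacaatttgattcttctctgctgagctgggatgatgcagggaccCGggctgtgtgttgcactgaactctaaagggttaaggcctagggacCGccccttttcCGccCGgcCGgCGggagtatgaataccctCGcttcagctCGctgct
Sox1: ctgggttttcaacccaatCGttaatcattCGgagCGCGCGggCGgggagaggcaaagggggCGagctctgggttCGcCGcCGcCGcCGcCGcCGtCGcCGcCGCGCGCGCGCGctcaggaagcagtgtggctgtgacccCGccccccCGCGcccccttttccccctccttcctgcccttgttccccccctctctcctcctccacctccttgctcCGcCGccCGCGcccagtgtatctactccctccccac
Hes1: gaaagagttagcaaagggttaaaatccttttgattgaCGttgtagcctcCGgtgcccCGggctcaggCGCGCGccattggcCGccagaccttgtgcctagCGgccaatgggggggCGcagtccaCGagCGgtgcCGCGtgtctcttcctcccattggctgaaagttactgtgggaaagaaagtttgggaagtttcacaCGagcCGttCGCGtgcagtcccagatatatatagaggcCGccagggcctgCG
Hes5: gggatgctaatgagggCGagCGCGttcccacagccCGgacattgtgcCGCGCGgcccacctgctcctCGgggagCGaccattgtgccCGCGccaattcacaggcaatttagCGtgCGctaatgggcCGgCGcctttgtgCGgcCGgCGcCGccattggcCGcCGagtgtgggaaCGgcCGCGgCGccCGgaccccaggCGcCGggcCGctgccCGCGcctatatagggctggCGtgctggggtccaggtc

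The Otx2 sequence holds 6 CG dinucleotides, that of Nes 14, that of Hes1 19, that of Sox1 29 and that of Hes5 32. Over the 22380 protein-coding genes, the median was 8 CG in the same 250 bases and the upper quartile 18. Otx2 thus lay below the median of all genes, Nes between the median and the upper quartile, and the other 3 above the upper quartile. Of the genes not shown, Six3 had 10 CG before the start of the gene record, Pax6 15, Sox2 25 and Msi1 32. Pax6, which has no peak in the window, was thus close to Nes, which has an H3K4me3 peak at the start. Whether CG content bears on the peaks of these genes was not tested. The letters TGGGAA, the core of the RBPJ motif, were searched for on both strands. They occurred in the Hes1 sequence 2 times on the strand of the gene, and in the Hes5 sequence 1 time on each strand. The 250 bases before the gene record of Hes1, which begins farther upstream and is the start used for the distances and GC content, held 28 CG and 1 match, on the opposite strand. The sequences of Otx2, Nes and Sox1 held none. Of the genes not shown, Six3 had 1 match before its gene record, on the opposite strand, and Sox2, Pax6 and Msi1 had none. Of the promoters of all genes, 21.0% held at least 1 such match.

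H3K4me3 peaks lay in the windows of 6 of the 9 genes, which together held 25 peaks. Over all protein-coding genes, 46.7% had an H3K4me3 peak in the window. Nes had 9 of these peaks, Sox1, Msi1 and Otx2 had 4 each, Six3 had 3 and Sox2 had 1, while Pax6, Hes1 and Hes5 had 0. An H3K4me3 peak overlapped the body of 4 of the 8 genes whose body was counted (Sox2, Nes, Otx2 and Six3), compared with 19.7% of all genes. That share was 10.4% for genes under 10 kb and 21.8% for those of 10 to 50 kb, the classes of these 8 genes. The start lay inside an H3K4me3 peak in 3 of the 9 genes (Nes, Otx2 and Six3), compared with 5.41% of all genes. When peaks within 1000 bp of the start were also counted, Msi1 and Sox1 were added, which gave 5 of the 9 genes, compared with 13.6% of all genes. The folds of the 25 peaks ranged from 2.08 to 3.98 with a median of 2.69, their lengths from 800 to 4600 bp and their reads from 21 to 76. The median fold of all H3K4me3 peaks lay within this range.

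**Figure D1:**
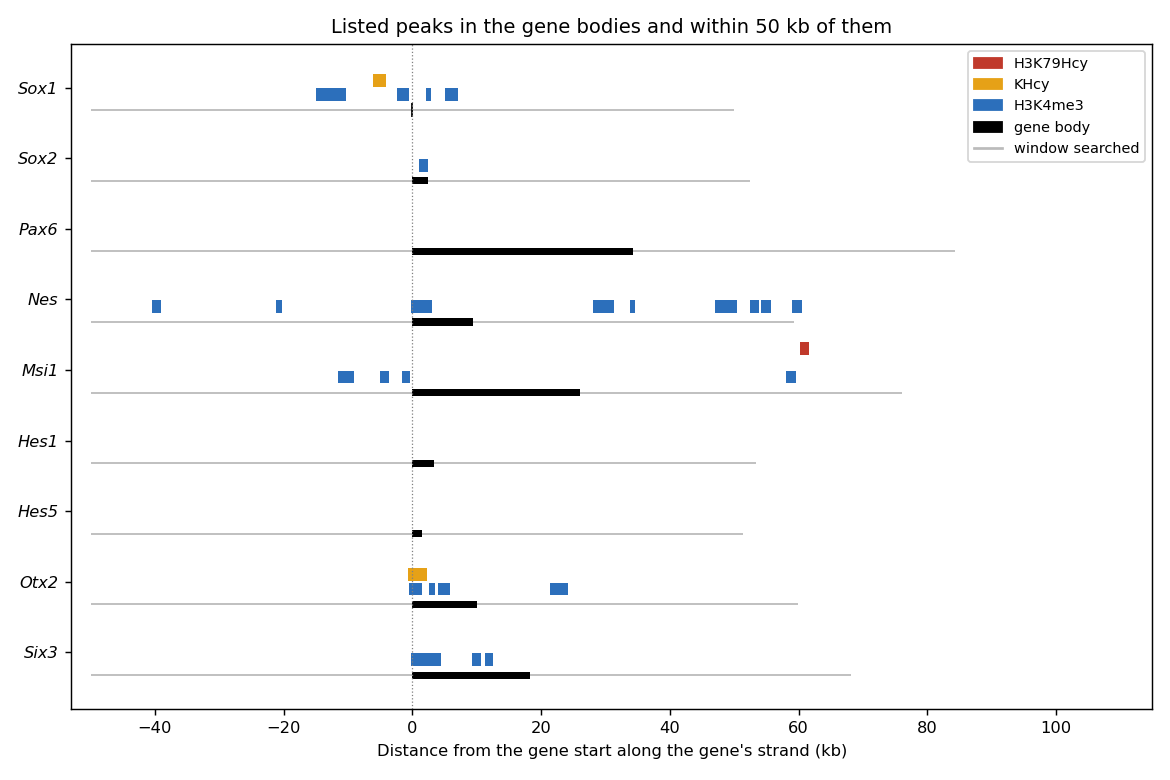
Listed peaks around the 9 genes, with the distance from the gene start in kb on the x axis and a row per gene, drawn along the strand of the gene. Red, orange and blue boxes are H3K79Hcy, KHcy and H3K4me3 peaks, black bars the gene bodies (a tick for Sox1, whose body was not counted) and grey lines the windows searched. H3K4me3 boxes appear in 6 rows, KHcy boxes in those of Sox1 and Otx2, an H3K79Hcy box in that of Msi1 alone, and the rows of Pax6, Hes1 and Hes5 are empty.

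Sox1 had H3K4me3 peaks on both sides of its start and none over it. The widest, at chr8:12380601-12385200, spanned 4600 bp with 74 reads and a fold of 2.33 (95% Poisson interval 1.83 to 2.93), and it ended 10.32 kb upstream of the start. A peak at chr8:12393201-12395000 held 28 reads (fold 2.25, 1.50 to 3.26) and ended 519 bp before the start. Downstream, a peak of 800 bp at chr8:12397601-12398400 held 22 reads and had the largest fold of all 25 peaks, 3.98 (2.50 to 6.03), and a peak of 2000 bp at chr8:12400601-12402600 held 35 reads (fold 2.53, 1.77 to 3.52). The intervals of the 4 folds overlap. The peaks other than the widest lay in an intron of Gm5607, the annotated gene that runs through this place on the same strand, and the widest lay within 1000 bp of the start of Gm5607. Since the body of Sox1 was not counted, whether the downstream peaks also lie in Sox1 itself was not determined.

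Sox2 had a single H3K4me3 peak, at chr3:34550001-34551400, with 28 reads over 1400 bp and a fold of 2.90 (1.92 to 4.19). It covered coding sequence and UTR of Sox2 and began 1.07 kb downstream of the gene start. Sox2 itself lies in an intron of Sox2ot, a long non-coding RNA gene of the same strand, so the peak overlapped both genes. The KHcy and H3K79Hcy peaks closest to the start of Sox2 were 935 and 7136 kb away.

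Nes had the most peaks, and 1 of the 9 covered its start. That peak, at chr3:87774801-87778000, spanned 3200 bp with 60 reads and a fold of 2.72 (2.07 to 3.50) and reached from just before the start into the coding sequence. Among the 1105 H3K4me3 peaks that cover a gene start, 16.7% were at least as wide. The other 8 peaks lay outside Nes, and several of them touched neighbouring genes. A peak of 30 reads covered the start of Rrnad1 and lay within 1000 bp of that of Isg20l2 (fold 3.10, 2.09 to 4.43). A peak of 54 reads covered the start of Bcan, which encodes the brain proteoglycan brevican (fold 2.30, 1.73 to 3.00). Crabp2, a retinoic acid binding protein gene, had a peak of 27 reads in an intron (fold 3.91, 2.58 to 5.69), and Hapln2, which encodes a link protein of brain extracellular matrix, was overlapped by 2 peaks of 30 and 31 reads. A count of 9 or more H3K4me3 peaks in the window was found for 2.29% of all genes, and the count for Nes thus includes peaks at the starts of other genes.

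Msi1 had no peak of any list in its body of 26.1 kb. The H3K4me3 peak closest to its start, at chr5:115878001-115879200, held 28 reads over 1200 bp, had a fold of 3.38 (2.25 to 4.88) and ended 408 bp before the start. Upstream of it were peaks of 27 reads at chr5:115874601-115876000 (fold 2.79, 1.84 to 4.06) and of 39 reads at chr5:115868001-115870600 (fold 2.17, 1.54 to 2.97). The remaining peak, of 23 reads, lay 57.99 kb downstream of the start and had the smallest fold of all 25, 2.08 (1.32 to 3.12).

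Otx2 had an H3K4me3 peak over its start and 2 more in its body of 9.97 kb, and a peak of 47 reads 21.32 kb downstream of the start, past the end of the gene. The peak over the start, at chr14:49285801-49287800, held 35 reads over 2000 bp (fold 2.53, 1.77 to 3.52). The peak at chr14:49283801-49284800 held 22 reads over 1000 bp (fold 3.19, 2.0 to 4.82), and that at chr14:49281401-49283400 held 31 reads over 2000 bp (fold 2.24, 1.53 to 3.19). Otx2 is transcribed from several starts, and the 4 that RefSeq promoters placed in mm9 were at bases 49287319, 49287183, 49284784 and 49282409 of chromosome 14. All 4 lay inside an H3K4me3 peak, with the first 2 in the peak over the gene start and 1 in each of the other body peaks.

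Six3 also had 3 H3K4me3 peaks in its body. The widest, at chr17:86012801-86017400, covered the start of the gene record and spanned 4600 bp with 76 reads and a fold of 2.39 (1.89 to 3.00), and 5.70% of the peaks that cover a gene start were at least as wide. It also overlapped an exon of Six3os1, the long non-coding RNA gene of the opposite strand, and reached to within 1000 bp of its start. The peaks at chr17:86022201-86023600 and chr17:86024201-86025400 held 26 reads (fold 2.69, 1.76 to 3.94) and 28 reads (fold 3.38, 2.25 to 4.88). The RefSeq promoter of Six3 matched mm9 farther downstream, with its start at base 86020174, and from that start the closest H3K4me3 peak was 2.03 kb away. Such a number of H3K4me3 peaks in the body, 3 or more, was found in 0.248% of genes under 10 kb, the class of Otx2, and in 1.65% of genes of 10 to 50 kb, the class of Six3. The body of Otx2, 9966 bp, lies just under the limit of its class, so the 1.65% applies to it nearly as well. The body peaks of Otx2 lie close together, as do the last ones of Six3. With peaks within 3000 bp merged, neither gene keeps 3, and the shares of all genes were not counted in that way.

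**Figure D2:**
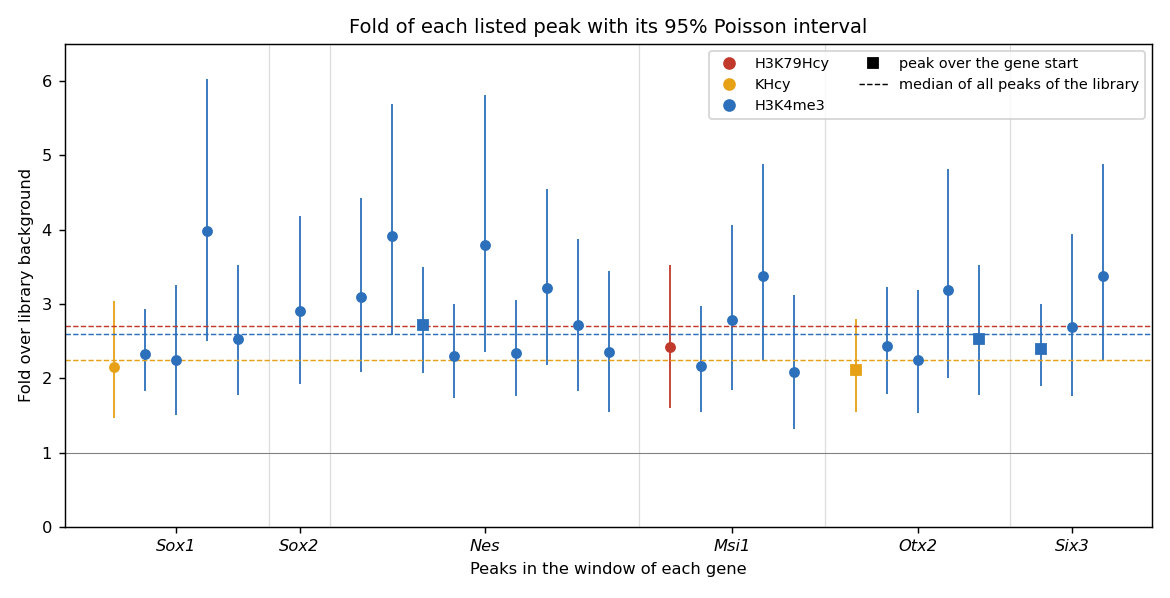
Fold over the background of the library (y axis) for each peak in the windows of the 6 genes that have any (x axis), within each gene by library and then by position. Points are single peaks, squares mark peaks over the gene start, bars are 95% Poisson intervals of the reads, and dashed lines are the medians of all peaks of each library. The H3K4me3 folds run from 2.08 to 3.98 on both sides of the median of 2.59, and all of their intervals overlap each other.

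Pax6, Hes1 and Hes5 had no peak of any of the 3 lists in the window, as was the case for 46.2% of all protein-coding genes. For Pax6, whose body spans 34.3 kb on chromosome 2, the closest H3K4me3 peak was 1906 kb from the start, and none of its 29 annotated transcript starts lay in a peak. For Hes5 on chromosome 4 the distance was 1475 kb, and for Hes1 on chromosome 16 it was 161 kb. The closest H3K79Hcy peaks were 3742 kb from Pax6, 5717 kb from Hes5 and 5917 kb from Hes1. A place is listed only if its reads reach the limit of the peak caller, and the smallest fold listed for a peak of 1400 bp was 1.79 in the H3K79Hcy list, 2.12 in the KHcy list and 2.17 in the H3K4me3 list. For peaks of 2000 bp it was 1.70, 1.75 and 1.74, so the limit falls as peaks grow longer. Signal below the limit for its length was not detectable, and the lists do not say whether the marks are absent from these genes.

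KHcy peaks lay in the windows of 2 of the 9 genes, Sox1 and Otx2, with 1 peak each, and 24.3% of all genes had a KHcy peak in the window. In Otx2 the KHcy peak overlapped the body, which held for 1 of 8 genes here and for 9.28% of all genes, and it covered the start, which held for 1 of 9 genes here and for 0.996% of all genes. Among genes under 10 kb, the class of Otx2, 2.59% had a KHcy peak in the body and 1.21% had the start in one. The KHcy peak of Otx2, at chr14:49285001-49288000, spanned 3000 bp with 47 reads and a fold of 2.11 (1.55 to 2.80). It contained the whole H3K4me3 peak over the Otx2 start, and the 2000 bp that they share are 66.7% of the KHcy peak. Its other end lay 200 bp from the next H3K4me3 peak of the gene. Of the 4 RefSeq starts of Otx2, 2 were inside the KHcy peak. Among all genes, 80 (0.357%) had the start in both a KHcy and an H3K4me3 peak, which is 35.9% of the 223 genes with the start in a KHcy peak.

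In Sox1 the KHcy peak, at chr8:12389401-12391400, held 32 reads over 2000 bp (fold 2.15, 1.47 to 3.04) and ended 4.12 kb upstream of the start, between the H3K4me3 peaks and without overlap with either. It did not pass a stricter limit on the score, which asked for a lead over the weakest listed peak that corresponds to a probability 100 times smaller, whereas the Otx2 peak passed. The Otx2 peak was longer, 3000 bp, and had the lower fold, 2.11. Both KHcy folds were below the median of the list, which was 2.25. Of the 25 H3K4me3 peaks, 17 passed the stricter limit of their own list, among them the 3 over a gene start. The Sox1 peaks of 22 and 28 reads were among those that did not pass.

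An H3K79Hcy peak lay in the window of 1 of the 9 genes, compared with 22.0% of all genes. No H3K79Hcy peak overlapped the body of any of the 8 genes, compared with 7.82% of all genes, and none covered the start of any of the 9, compared with 0.416%. The share with a peak in the body was 1.56% for genes under 10 kb and 6.19% for those of 10 to 50 kb, the classes of these 8 genes. The single peak, in the window of Msi1 at chr5:115939801-115941200, spanned 1400 bp with 27 reads, a fold of 2.42 (1.60 to 3.52) and a score of 18.5. It lay 60.2 kb downstream of the Msi1 start, past the end of the gene, and did not pass the stricter score. It covered a U4 gene, for a small nuclear RNA of the spliceosome, and was 600 bp from the H3K4me3 peak in the same place. The U4 record, at chr5:115940263-115940403, takes up a small part of the peak. The annotation holds 43 records of U4. Whether reads here are shared with other copies was not tested, so the value is uncertain.

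**Figure D3:**
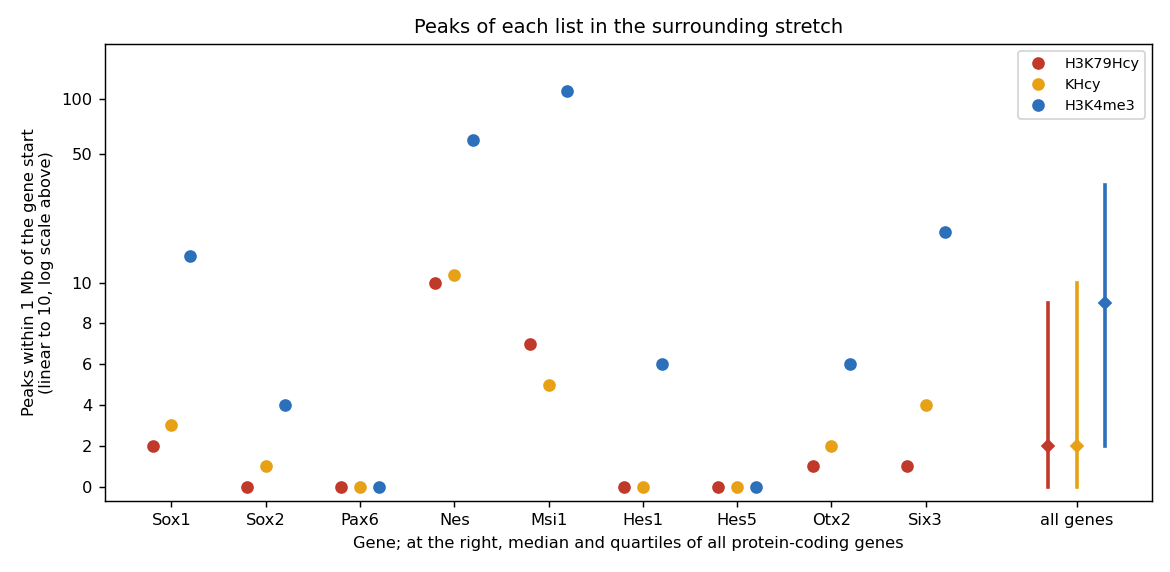
Number of peaks of each list within 1 Mb of the start (y axis, linear to 10 and on a log scale above) for the 9 genes (x axis), with the median (diamond) and quartiles (line) of all protein-coding genes at the right. Msi1 and Nes have the most H3K4me3 peaks (111 and 60), Nes the most H3K79Hcy and KHcy peaks (10 and 11), and Pax6 and Hes5 have 0 in all 3 lists.

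The wider surroundings of the genes also differed in their number of peaks. Within 1 Mb of the start there were 111 H3K4me3 peaks for Msi1, 60 for Nes, 19 for Six3, 14 for Sox1, 6 for Hes1, 6 for Otx2 and 4 for Sox2, while Pax6 and Hes5 had 0. The median of all genes was 9, with quartiles of 2 and 34. For H3K79Hcy the counts were 10 for Nes, 7 for Msi1, 2 for Sox1 and 1 each for Otx2 and Six3, with 0 for the other 4, and the median of all genes was 2. For KHcy they were 11 for Nes, 5 for Msi1, 4 for Six3, 3 for Sox1, 2 for Otx2 and 1 for Sox2, with 0 for Pax6, Hes1 and Hes5, again beside a median of 2. Otx2, with 6 H3K4me3 peaks in this stretch, held 4 of them in its own window, whereas Nes held 9 of 60 and Msi1 4 of 111. The start lay a median of 0.519 kb from the closest H3K4me3 peak over the 9 genes, compared with 78.4 kb over all genes. For H3K79Hcy the medians were 529 and 352 kb, and for KHcy 428 and 325 kb.

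The 3 genes whose start lay in an H3K4me3 peak were not those with the starts richest in G and C. In the 501 bp centred on the start the GC content was 44.1% for Otx2, 58.9% for Pax6, 59.1% for Sox2 and for Six3, 60.5% for Nes, 66.9% for Hes1, 71.1% for Hes5, 71.9% for Sox1 and 82.2% for Msi1. None of the 4 genes above 65% had the start in a peak, and 2 of them, Sox1 and Msi1, had a peak that ended 519 and 408 bp before it. The GC content of the 25 H3K4me3 peaks ran from 42.1 to 59.7% with a median of 48.1%, beside a median of 44.9% for all H3K4me3 peaks. Over the whole lists, 0.895% of H3K4me3 peaks, 0.562% of KHcy peaks and 0.379% of H3K79Hcy peaks had a GC content over 60%.

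**Figure D4:**
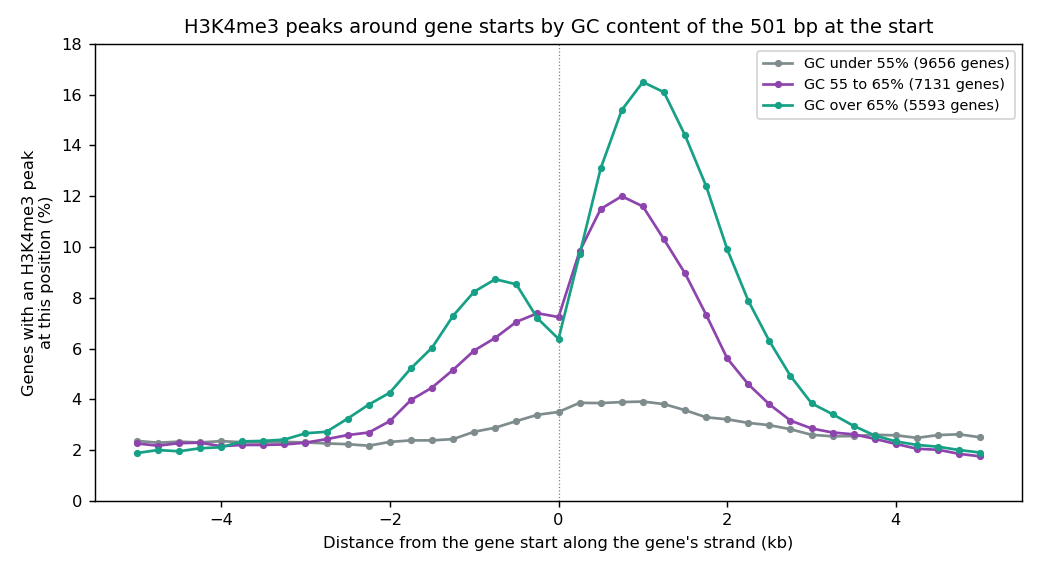
Share of protein-coding genes with an H3K4me3 peak at each distance from the gene start (x axis, kb along the strand of the gene; y axis, percent), for genes with a GC content under 55%, of 55 to 65% and over 65% in the 501 bp at the start. In the class over 65% the share is 8.73% at 750 bp upstream, 6.38% at the start and 16.5% at 1000 bp downstream, whereas the class under 55% stays between 2.17 and 3.91%.

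Over all genes, the share of starts in an H3K4me3 peak was largest in the middle class of GC content. Of the 5593 genes with a GC content over 65% at the start, 6.38% had an H3K4me3 peak at the start, 8.73% at 750 bp upstream and 16.5% at 1000 bp downstream. Of the 7131 genes of 55 to 65%, the class of Pax6, Sox2, Six3 and Nes, 7.24% had a peak at the start and 12.0% at 750 bp downstream. Of the 9656 genes under 55%, the class of Otx2, 3.50% had a peak at the start and 3.89% at 750 bp downstream. A dip in the share at the start itself, with larger shares on both sides, was thus present in the class of Sox1, Msi1, Hes1 and Hes5. A smaller dip was present in the class of 55 to 65%, with 7.39% at 250 bp upstream, 7.24% at the start and 9.83% at 250 bp downstream. The part of GC content in the absence of a peak over the starts of Sox1, Msi1, Hes1 and Hes5 was not tested.

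Hes1 and Hes5 are targets of Notch signalling, and 25 other genes of this pathway were counted in the same way. H3K4me3 peaks lay in the windows of 16 of them (64.0%, compared with 46.7% of all genes) and overlapped the bodies of 8 (19.7% of all genes). The start lay in a peak for Lfng, which encodes a glycosyltransferase that modifies Notch receptors, and for Hes7, a repressor of the Hes family, that is for 2 of 25 genes beside 5.41% of all genes. The peak at the Lfng start held 42 reads (fold 3.38) and that at the Hes7 start 41 reads (fold 2.47). The start of Lfng also lay in a KHcy peak of 36 reads (fold 3.03), the only such start among the 25 genes. When peaks within 1000 bp were also counted, 5 of the 25 genes had an H3K4me3 peak at the start, compared with 13.6% of all genes. KHcy peaks lay in 6 of the 25 windows (24.0%) and H3K79Hcy peaks in 5 (20.0%), both close to the shares of all genes, 24.3% and 22.0%. No start lay in an H3K79Hcy peak. Notch2 was the gene of the list with the most H3K79Hcy peaks in its body, which were 2 over 137 kb.

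Of 19 relatives of the 9 genes by family, 13 (68.4%) had an H3K4me3 peak in the window and 9 in the body, compared with 46.7% and 19.7% of all genes. The start lay in an H3K4me3 peak for 6 of them, compared with 5.41% of all genes, and these include Pax2 and Pax3, paired-box relatives of Pax6, Sox9 and Sox14, and Ina, an intermediate filament gene. Pax2 had 8 H3K4me3 peaks in its body of 82.2 kb and Pax3 had 5 in 95.9 kb, while Pax6 had 0 in its shorter body of 34.3 kb. The peak at the start held 47 reads for Pax2 (fold 2.84) and 52 for Pax3 (fold 2.90). The starts of Pax2 and Pax3 also lay in KHcy peaks, of 36 reads (fold 2.02) and 30 reads (fold 2.24), as that of Otx2 did. Within 1000 bp of the start, H3K4me3 peaks were present for 10 of the 19, compared with 13.6% of all genes. Sox3, the remaining SoxB1 gene, had no peak in the window. KHcy peaks lay in 8 of the 19 windows (42.1%, compared with 24.3% of all genes) and H3K79Hcy peaks in 6 (31.6%, compared with 22.0%), and no start lay in an H3K79Hcy peak.

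The label of the cells was set beside markers of other cell types, by whether their starts lay in an H3K4me3 peak. None of 6 neuronal, 4 astrocyte, 4 oligodendrocyte, 4 microglial and 5 pluripotency markers had the start in a peak, and 1 of 3 endothelial markers had (Kdr, 45 reads, fold 2.33). Since 5.41% of all genes had the start in such a peak, counts of 0 in lists this short say little about a cell type. Within 1000 bp of the start, peaks were present for 2 pluripotency markers, Tdgf1 at 0.262 kb and Pou5f1 at 0.819 kb, and for Kdr. The neuronal gene Rbfox3 had 21 H3K4me3 peaks in its body of 422 kb. The count for the 9 neural stem and forebrain genes was 3 with the start in a peak and 5 within 1000 bp, and Sox2, Pax6, Hes1 and Hes5 were not among them. Peaks of H3K4me3 give no measure of expression, and the RNA of these cells is not analysed here.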

How the data were processed

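Peak lists of 3 ChIP-seq libraries of NE4C cells, 1 for each antibody, were analysed. According to the methods of the study, the reads were aligned to mm9 with Bowtie 2, and peaks were called with MACS and filtered through control input. The labels name MACS 1.4.2, whereas a legend names SICER, and peaks of whole 200-bp windows were found in all 3 lists. The authors deposited, for each peak, its position, its length and a count of reads that is not normalized for depth or length. The score that the authors deposited beside it is, in peaks of 1 window, the Poisson probability of the reads on a negative natural log scale. The lists hold no fold and no false discovery rate, which had been planned for, so the scores of the peaks of 1 window were used to solve for the background of each library (27 for H3K79Hcy, 8 for KHcy and 14 for H3K4me3). It came to 1.59, 1.49 and 1.38 reads per window, respectively. The fold is the count of a peak over this background at the same length, with the exact 95% Poisson interval of the count, which covers counting error only. The background is assumed to be even along the genome.

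Positions are in mm9, counted from 1, with genes, exons and starts from GENCODE M1. RefSeq promoters (GRCm38) were placed in NCBIM37 by exact match on both strands, each at a single place, and no RefSeq coordinate was used. No entry was used for Msi1 and Hes1. The GC content is that of NCBIM37. Every peak in the window of a gene was reported, and other genes were named where such a peak overlapped them, or from the lists of Notch genes, family relatives and cell type markers where the start lay in a peak or the body held the most peaks. Distances for Tdgf1 and Pou5f1, and the values of Sox3 and Rbfox3, were added after they had been seen. The genes and all lists were chosen with earlier results of these data known. The neuronal marker Map2 is not analysed here, and some items are not reported here.

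The alternatives tried were windows of 10 and 100 kb, a stricter score (above the lowest by the natural log of 100), lists cut to the same length (7300 peaks, by score), merging of peaks within 3000 bp, overlap by at least 50% of the peak, and other definitions of the start. Counts of overlaps and closest distances were tested on 4000 simulated cases each, with 0 wrong. The tools were Python 3.11.15, numpy 2.4.6, pandas 2.3.3 and scipy 1.17.1. Not analysed here were the input and IgG controls and the cells given HTL.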

Additional observations from a re-analysis of the deposited data

How the results depend on the processing

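Of 67 alternative values, 55 stayed within 1.5 times the main value and 12 moved. Several of the 55 could not move, so this count is no measure of robustness. The KHcy list already held 7300 peaks, so the cut to equal length left it unchanged. H3K79Hcy counts of 0 could not rise under a stricter score, a shorter list or a larger overlap. The values are counts and median folds, which have no sign and so could not reverse in direction. The H3K79Hcy peak near Msi1 was lost, for 0 peaks in 0 genes, with windows of 10 kb and with the stricter score. With the stricter score, KHcy peaks fell to 1 peak in 1 gene, that of Otx2. The 25 H3K4me3 peaks came to 14 with windows of 10 kb, to 16 when peaks within 3000 bp were merged and to 8 with lists of equal length, and in those lists 2 genes in place of 4 had an H3K4me3 peak in the body. Counting peaks within 1000 bp gave 5 genes with an H3K4me3 peak at the start in place of 3, and 1 H3K79Hcy peak next to an H3K4me3 peak in place of 0. The direction of each of these changes follows from how the alternative is built, but its size depends on the scores and places of the peaks. With RefSeq starts, an alternative chosen after seeing the data, 2 genes had the start in an H3K4me3 peak, since that of Six3 did not.

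No paired analysis was possible because each antibody has 1 library and no test was made. For the same reason no replicate was left out. The peaks of these genes hold 21 to 76 reads, and the smallest fold that a list holds depends on the length of the peak, so folds of short and long peaks are not on equal footing: for H3K4me3 it was 2.75 at 1000 bp and 1.74 at 2000 bp. Absence from a list is therefore no measure of absence of the mark.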
